A study of Mus musculus and Rattus norvegicus with 24 samples.

Results

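Myoglobin, gene Mb, is 1 of the 9595 genes listed for 24 single cells labelled as cardiomyocytes. It was followed by its row of counts in all of those cells. Adult cells were ventricular cardiomyocytes of adult wild-type rats. Transplanted cells were cardiomyocytes made from mouse embryonic stem cells, injected into the neonatal rat heart and recovered after 30 days. Cultured cells derived from that stem cell line too but stayed for 30 days in a dish. The line carries Isl1-Cre with a red Rosa reporter, which marks descendants of cells that expressed Isl1, and a green reporter under the alpha myosin heavy chain promoter; the adult rat cells carry none of these. Each group holds 8 cells, lettered A to H. The letters only name cells, and the labels name no animal or culture. Each group therefore counted as 1 sample, which allows no test between groups, and single cells did not serve as replicates. Both stem cell groups rest on 1 line, and the adult group differs from them in species as well as in age, which cannot be told apart from maturity.

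Myoglobin is a small globin that holds a heme group and binds oxygen reversibly. In heart and oxidative skeletal muscle it stores oxygen, eases its movement toward mitochondria and reacts with nitric oxide. In rodents its transcription in muscle is known to depend on a CCAC box and an A/T-rich element close to the transcription start, the second a binding site of MEF2 factors, and it is raised by calcineurin signalling and by the coactivator PGC-1 alpha. The comparison of transplanted with cultured cells sets stem cell cardiomyocytes after a period inside a heart beside those kept in a dish. These groups also differ in library depth and sarcomere share, given below, and an effect of the heart apart from these was not tested. The adult cells give the mature state against which both can be set.

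Total counts of the listed genes ran from 108546 to 223744 in adult cells, from 88796 to 344224 in transplanted cells and from 16099 to 60789 in cultured cells. Levels are counts scaled to a total of 1000000 per cell or group (CPM), and values of a group are of the sum over its 8 cells. Intervals are exact 95% intervals. Amplified reads are not independent molecules, so intervals and floors cover counting error only. The sarcomere list, the cardiomyocyte markers, took 15.96% to 23.1% of counts in adult cells, 15.7% to 22.9% in transplanted cells and 0.00837% to 17.7% in cultured cells. In the cultured sum it took 5.52%, most of it Ttn, titin, at 45111.5 CPM. Ttn stood at 4057 CPM in the adult and 2131 CPM in the transplanted sum. In the cultured group all 90 counts of Myl2, the ventricular light chain, and all 24 counts of Tnni3, the adult troponin I, were in cell A. Rn45s, the ribosomal RNA precursor, took 0.748% to 1.95%, 0.547% to 1.78% and 1.29% to 13.2% of counts in adult, transplanted and cultured cells. Fibroblast markers, of which 8 of 11 are listed, reached at most 0.000582% in adult, 0.000511% in transplanted and 0.209% in cultured cells. Their median in cultured cells was 0.0907%, while the sarcomere list took only 0.0883% in cultured G and 0.00837% in cultured H.

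Mb lies on mouse chromosome 15 at 77015487 to 77050670 (GENCODE M21, mm10), on the minus strand, with 6 annotated transcripts and 1492 bp of exon. It overlaps the antisense gene Gm49540 by 412 bp and Apol6, on the opposite strand, by 5942 bp. Neither is among the listed genes, and the strand setting of the counting is not given in the sources used here, so reads from those stretches cannot be told apart. RefSeq (GRCm38.p6) gives 3 transcription starts, at 77050668, 77022787 and 77022727. The window around the middle start is printed because it holds both known muscle elements, chr15:77022738-77023037 on the minus strand, with capitals marking the CCAC box (CCCACCCC) and the A/T-rich element (AAAATAG).
Mb promoter: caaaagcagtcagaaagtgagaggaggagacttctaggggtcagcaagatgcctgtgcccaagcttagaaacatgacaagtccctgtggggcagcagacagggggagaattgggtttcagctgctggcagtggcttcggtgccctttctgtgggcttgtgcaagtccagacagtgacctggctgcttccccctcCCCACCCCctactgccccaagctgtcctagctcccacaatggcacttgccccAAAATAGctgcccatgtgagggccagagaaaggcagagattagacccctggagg

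The CCAC box began 56 bases and the A/T-rich element 4 bases before the start at 77022787, which is 116 and 64 bases before the start at 77022727. The window also held 3 E-boxes (CANNTG) and no AAGGTCA, the letters bound by estrogen-related receptors. Both strands were searched, and overlap between motifs was allowed. Of 32851 RefSeq promoter windows of the same length, 9.40% held CCCACCCC, 4.22% held AAAATAG, 72.3% held CANNTG and 4.72% held AAGGTCA. CCCACCCC and AAAATAG stood together in 86 windows, or 0.262%. These are matches of letters in the mouse sequence, and they say nothing of the rat promoter of the adult cells.

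Mb was among the most abundant transcripts of every adult and every transplanted cell and was nearly undetected in cultured cells. The Mb level was 37141, 39712, 33907, 22985, 17284, 13312, 36916 and 23088 CPM in adult cells A to H. It was 20125, 41038, 23064, 34668, 22386, 18189, 24303 and 19275 CPM in transplanted cells A to H. Both groups covered much the same range, with transplanted B the highest of all 16 cells and adult F the lowest. In the cultured group only cell A had Mb, with 2 counts or 101 CPM, and cells B to H had 0.

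**Figure D1:**
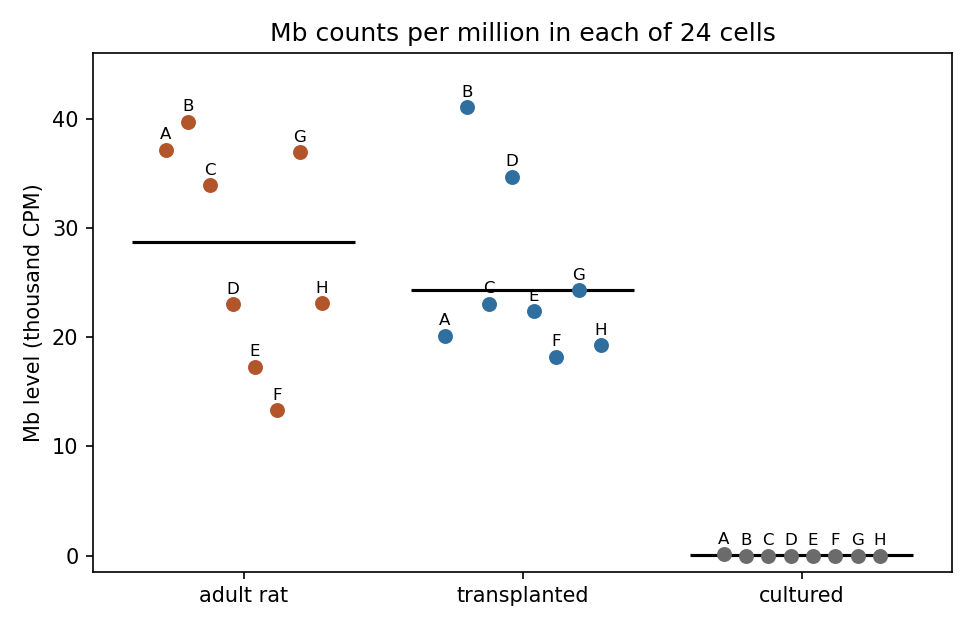
Mb level (y axis, CPM divided by 1000) in each of the 24 cells (points, lettered), by group (x axis), with a line at the level of the group's summed counts. Adult cells span 13312 to 39712 CPM and transplanted cells 18189 to 41038 CPM, while cultured cells lie at 0 apart from cell A at 101 CPM.

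The underlying counts were large, with 1445 to 8310 Mb counts per adult cell (median 4785.5) and 2048 to 6635 per transplanted cell (median 3619.5). As a share of all counts, Mb took 1.33% to 3.97% in adult cells (median 2.85%) and 1.82% to 4.10% in transplanted cells (median 2.27%). The cultured libraries were shallower: at the lowest transplanted share they would have held 293 to 1106 Mb counts each (median 386). The floor of 3 counts set for a count of 0 lay at 49.4 to 186 CPM in single cultured cells. That floor is the highest level a count of 0 allows here, so lower Mb levels in those cells cannot be told from none.

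Over the summed cells, Mb stood at 28716 CPM in adult cells (28422 to 29012, 36513 counts), 24276 CPM in transplanted cells (24009.6 to 24545, 31629 counts) and 9.70 CPM in cultured cells (1.17 to 35.0, 2 counts). The adult to transplanted ratio was 1.18 (1.17 to 1.20), or 0.24 on the log2 scale. That difference is small beside the spread between cells, since 6 of 8 adult cells lay within the transplanted range and 7 of 8 transplanted cells within the adult range. No adult cell was above all transplanted cells, and 2 were below them all. Among all genes with at least 10 counts over both groups, 44% were more than 2-fold higher and 34.6% more than 2-fold lower in adult than in transplanted cells, and the median log2 ratio was 0.37.

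Against cultured cells the differences were of another order. The adult to cultured ratio was 2960.3 (819 to 24445) and the transplanted to cultured ratio 2503 (693 to 20666). Both rest on the 2 counts of cultured cell A: without it the cultured sum held 0 counts, and Mb was at least 1784-fold higher in adult and at least 1508-fold higher in transplanted cells, against a floor of 3 counts over the 7 cells left. Against cell A alone, a setting chosen after seeing the data, the ratios were 284 and 240.5. The lowest of the 16 adult and transplanted cells was 132-fold above cultured A, so no cultured cell came near them. For comparison, 28.6% of measured genes were more than 2-fold higher and 62% more than 2-fold lower in adult than in cultured cells, with a median log2 ratio of -3.85 (-5.47 without adult C, -2.08 without cultured B). In transplanted against cultured cells those shares were 26.7% and 63.9%, with a median of -5.63 (-2.90 without cultured B, and -4.53 with genes at 0 set to the floor), so Mb moved against most genes in both. The ribosomal RNA share given above differed between the same groups, and so did other library quality RNAs. Rpph1 had 28369 CPM in cultured, 3.15 CPM in adult and 0 in transplanted cells. Malat1 had 12256 CPM in cultured, 1095 CPM in adult and 401 CPM in transplanted cells. The part of such library differences in the Mb difference was not tested.

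Among transcripts ranked by count, Mb was the 4th most abundant of the adult sum and the 5th of the transplanted sum. In single cells its rank ran from 2 to 9 in adult cells and from 1 to 8 in transplanted cells, and transplanted B was the cell where it led. In the adult sum it followed Myl2 (38705 CPM), Tpm1 (36226 CPM), the alpha tropomyosin of the thin filament, and Tnni3 (32558 CPM), and it stood above Myl3, the essential ventricular light chain, at 26383 CPM. In the transplanted sum Myl3 stood above it at 30779 CPM, and Actc1, cardiac actin, was next below at 22490 CPM. In adult cells Myl2, Tpm1, Tnni3, Myl3 and the mitochondrial carrier Slc25a4 lay within 1 SD of Mb over single cells (10106 CPM). In transplanted cells Myl3, Actc1 and Slc25a4 did (8138 CPM).

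Per exon length, a scale for setting genes side by side, Mb was 4th in the adult sum at a length-scaled level of 32414 CPM. It was 6th in the transplanted sum at 27437 CPM. On that scale genes of cytochrome oxidase, the last complex of the respiratory chain, and of the sarcomere stood beside Mb. Of sarcomere genes, Myl2 had a length-scaled level of 33428 CPM in adult and 36728 CPM in transplanted cells. Tnni3 had 26579 CPM in adult and 29401 CPM in transplanted cells. The muscle subunit Cox8b had a length-scaled level of 44852 CPM in adult and 33722 CPM in transplanted cells, and Cox7a1 had 39643 CPM in adult and 35160 CPM in transplanted cells. Cox6a2, a further heart and muscle subunit, came just below Mb in adult cells at 30915 CPM and above it in transplanted cells at 30592 CPM. In single cells the rank per length ran from 1 to 15 in adult and from 1 to 10 in transplanted cells. Lengths are of the exons of all annotated transcripts of a gene joined, 1492 bp over 6 transcripts for Mb, so these ranks depend on the annotation. Mouse exon lengths were used for the rat cells too.

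**Figure D2:**
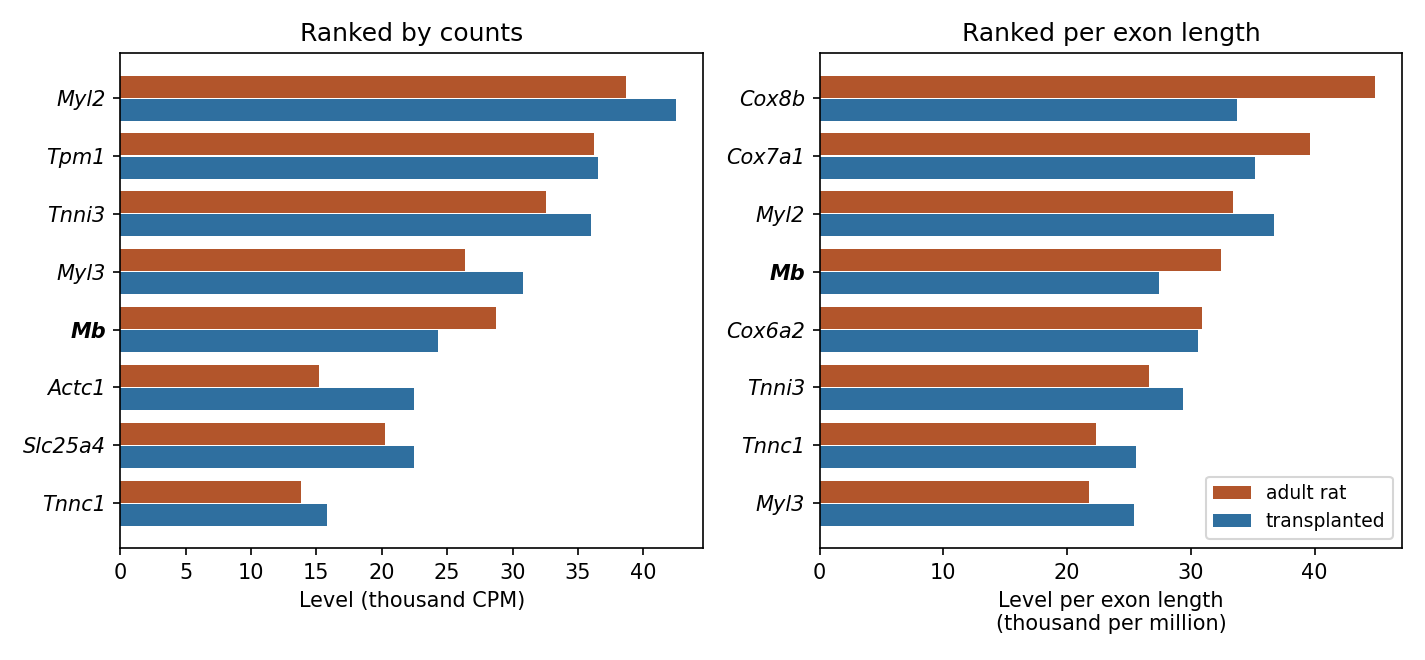
Levels of Mb and of the genes around it in the summed adult and transplanted cells (bars), by counts (left, CPM divided by 1000) and per exon length (right, length-scaled CPM divided by 1000). Mb lies at 28716 CPM in adult and 24276 CPM in transplanted cells, below Myl2, Tpm1 and Tnni3 by counts and below Cox8b, Cox7a1 and Myl2 per length.

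Set against single other genes of the same libraries, chosen after their values were seen, Mb counts were somewhat more numerous in the adult sum. There were 0.742 Mb counts per Myl2 count in adult cells and 0.572 in transplanted cells, with single cells at 0.330 to 1.49 and 0.381 to 1.53. Per Actc1 count there were 1.89 Mb counts in adult and 1.08 in transplanted cells. Over 12 abundant genes of contraction and energy supply, the adult value of the sums was 1.05 times (Cox7a1) to 1.75 times (Actc1) the transplanted one. Medians of single cells lay closer for some genes, with 1.82 in adult against 1.70 in transplanted cells for Actc1 and 1.06 against 1.03 for Myl3. For Fabp3 the adult median was the lower, at 4.33 against 4.84. For the others it was the higher, as for Tnnc1 at 2.38 against 1.57. In cultured cell A, the cultured cell with Myl2, there were 0.0222 Mb counts per Myl2 count (0.00265 to 0.0826; 2 against 90 counts) and 0.0179 per Actc1 count (0.00214 to 0.0660). Both intervals lay under the lowest single adult and transplanted cell. The same was so of Tpm1, Tnni3, Slc25a4, Cox4i1 and Cox6a2. It was not so of Myl3 (0.222, interval 0.0234 to 1.07) and Tnnc1 (0.400, interval 0.0381 to 2.44). These had the fewest counts of the genes detected in cultured A.

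The Mb level varied between cells far beyond counting error. Its coefficient of variation (CV, the SD over the mean of single-cell CPM) was 36.0% in adult and 32.1% in transplanted cells, where counting error gives 1.69% and 1.72%. The highest cell was 2.98 times the lowest in adult and 2.26 times in transplanted cells. Among genes of at least 1000 CPM, 32 of 140 in adult cells and 28 of 142 in transplanted cells had a lower CV, against medians of 53.5% and 57.6%. Among genes of at least 10000 CPM, however, Mb was among the more variable: 11 of 13 in adult cells and 9 of 12 in transplanted cells had a lower CV. In adult cells the lowest was Tpm1 at 19.5% and the highest Tnnc1, cardiac troponin C, at 44.9%, and in transplanted cells they were Myl2 at 19.3% and Actc1 at 58.2%. Without transplanted B the transplanted CV was 23.9%, and without adult F the adult CV was 29.3%.

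**Figure D3:**
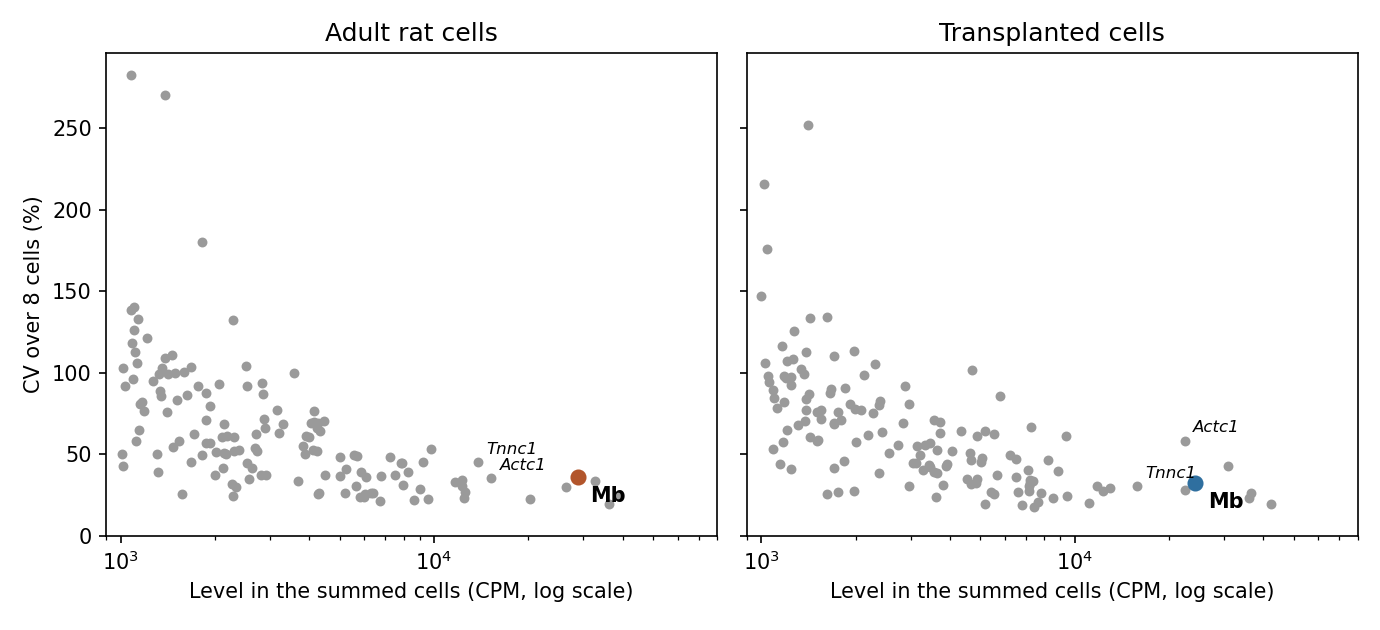
CV over 8 cells (y axis, %) against level in the summed cells (x axis, CPM, log scale) for genes of at least 1000 CPM, in adult (left) and transplanted cells (right), with Mb as the large coloured point. Mb lies at 36.0% in adult and 32.1% in transplanted cells, below most genes of lower level and above most genes of at least 10000 CPM.

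Genes whose level followed Mb were sought within the 8 adult and within the 8 transplanted cells, among 206 genes with a mean of at least 100 CPM and a count in at least 6 of 8 cells of each group. Each was scored by the lower of its 2 Spearman coefficients (rho) with Mb. These coefficients describe 8 cells of 1 sample each, and the levels of a cell share its library and total. None of the 206 genes (0%) reached 0.7 in both groups and none (0%) reached -0.7 in both. Within 1 group, 9 genes in adult and 3 in transplanted cells reached 0.7, and 5 and 10 reached -0.7. The median rho of the 206 genes was 0.07 in adult and 0.00 in transplanted cells.

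The gene most like Mb was Cox8b, with a rho of 0.83 in adult and 0.62 in transplanted cells. Cox8b had 7435 to 13782 CPM in adult cells (median 8598), 3448 to 11940.3 CPM in transplanted cells (median 8356) and 0 in all cultured cells. It was highest in adult B and transplanted B, as Mb was, and lowest in adult F, as Mb was, but in transplanted E, where Mb was near its median. Leaving out 1 cell moved its rho between 0.75 and 0.86 in adult and between 0.43 and 0.75 in transplanted cells. Without transplanted A or transplanted E it was past 0.7 in both groups. Pearson's r of log2 levels was 0.79 and 0.46.

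Next came Atp5k, a subunit of ATP synthase, with a rho of 0.71 in adult and 0.57 in transplanted cells; without transplanted A it too was past 0.7 in both groups. Ankrd23, a titin-associated ankyrin repeat protein of muscle, had 0.54 and 0.52. Cox7b, another cytochrome oxidase subunit, had 0.48 and 0.43, but Pearson's r of its log2 levels in transplanted cells was -0.06. Dsp, the desmoplakin of cell junctions, had 0.50 and 0.40, and Rplp2, a ribosomal stalk protein, 0.57 and 0.38. Timm8b, which helps import proteins into mitochondria, had 0.36 and 0.69, and Oxct1, which starts the use of ketone bodies, 0.71 and 0.34. Rps27l, a ribosomal protein paralog, had 0.74 and 0.33, and Lpl, the lipase that frees fatty acids from lipoproteins, 0.33 and 0.55. Of these 10 genes 3 (Cox8b, Atp5k and Cox7b) are on the oxidative phosphorylation list, as were 33 of the 206 scored. That list leaves out many scored subunits, such as Ndufv3, Ndufb11 and Ndufa9 of complex I, so no excess can be read from these counts. Of 9 with a RefSeq promoter, 0 held CCCACCCC, 0 held AAAATAG, 7 held CANNTG and 3 held AAGGTCA, where 12.8%, 4.88%, 72.0% and 7.93% of the 164 matched genes did.

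**Figure D4:**
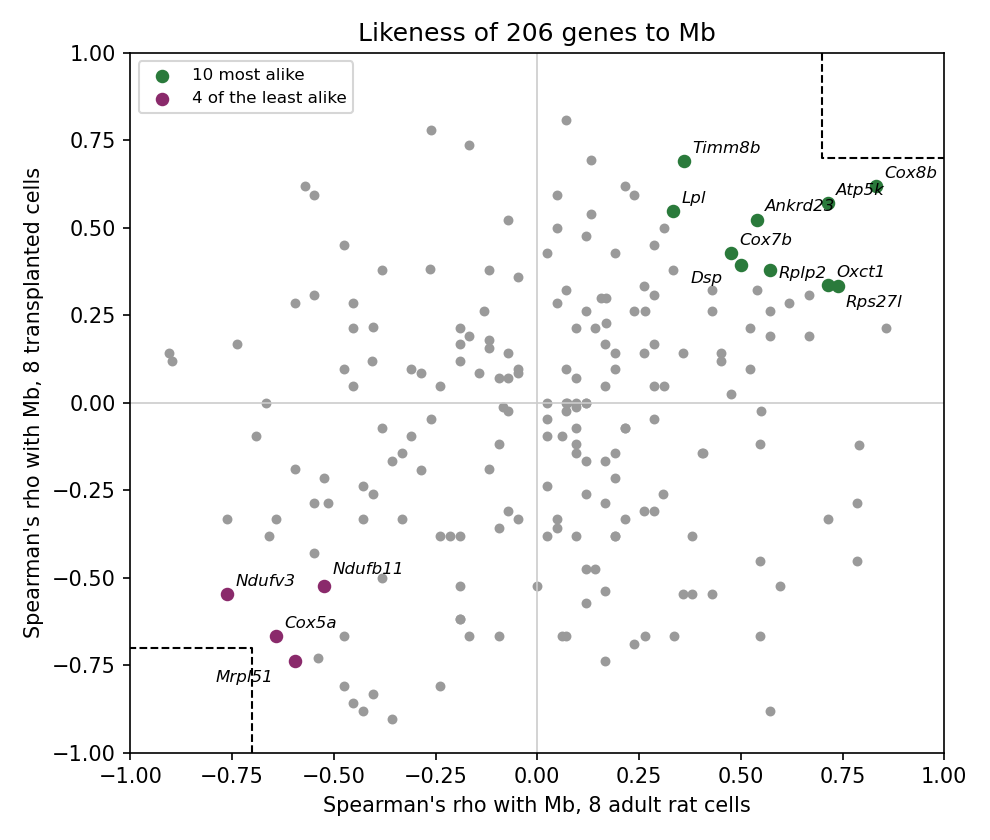
Spearman's rho with Mb over 8 adult cells (x axis) and over 8 transplanted cells (y axis) for 206 genes (points), with the 10 most alike and 4 of the least alike coloured and dashed corners at 0.7 and -0.7. No gene lies in either corner, and Cox8b at 0.83 and 0.62 is nearest to the upper one.

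At the other end, genes were ranked by the higher of their 2 coefficients, so that those most negative in both groups come out. Cox5a, a further cytochrome oxidase subunit, had a rho of -0.64 in adult and -0.67 in transplanted cells. Its level was 931 to 8966 CPM in adult and 1554 to 9744 CPM in transplanted cells, lowest in cell B of each group, where Mb was highest, and highest in cell H of each. Without 1 cell its rho lay between -0.86 and -0.46 in adult and between -0.79 and -0.50 in transplanted cells. Mrpl51, a mitochondrial ribosomal protein, had -0.60 and -0.74, and the complex I subunits Ndufv3 and Ndufb11 had -0.76 and -0.55, and -0.52 and -0.52.

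**Figure D5:**
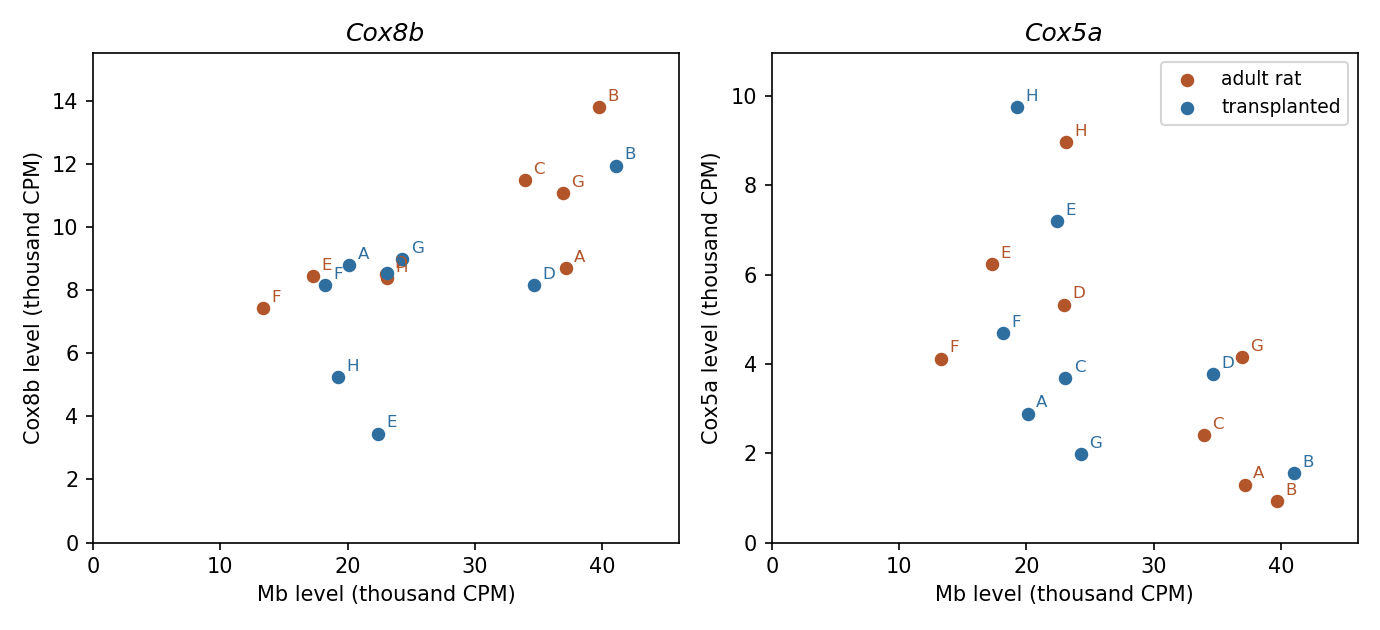
Levels of Cox8b (left) and Cox5a (right) on the y axes against that of Mb on the x axes, all as CPM divided by 1000, in each adult and each transplanted cell (points, lettered). Both cells B, the highest in Mb, are the highest in Cox8b and the lowest in Cox5a of their group.

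Several strong coefficients held in 1 group only by these values, and the difference between groups was not tested. Higd1a, a hypoxia-inducible mitochondrial protein, had 0.86 in adult and 0.21 in transplanted cells. Map1lc3a, of autophagosomes, had -0.90 in adult and 0.14 in transplanted cells, and the complex I subunit Ndufa9 had -0.90 and 0.12. The coefficient of Ttn, the giant sarcomere spring, was the other way round, with 0.07 in adult and 0.81 in transplanted cells, and so was that of Acadm, a fatty acid dehydrogenase, with -0.26 and 0.78. Cox7c had -0.36 in adult and -0.90 in transplanted cells, and Myl2 had -0.43 and -0.88. Nme2, a nucleoside diphosphate kinase, had 0.57 in adult and -0.88 in transplanted cells.

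Medians over lists were as follows, beside 0.07 in adult and 0.00 in transplanted cells for all 206 genes. For 33 genes on the oxidative phosphorylation list the median rho was 0.02 in adult and -0.07 in transplanted cells. Of them 8 were positive and 10 negative in both. For 8 genes of fatty acid uptake and oxidation it was 0.06 and 0.12, and for 14 sarcomere genes -0.23 and 0.02. For 5 calcium handling genes it was 0.13 and 0.32, and for 4 genes that handle nitric oxide and reactive oxygen 0.42 and -0.02. The summed sarcomere share of a cell's counts had a rho with Mb of -0.81 in adult and -0.52 in transplanted cells, also with Mb left out of the total. The summed oxidative phosphorylation share had -0.07 and -0.36, or 0.10 and -0.36 with Mb left out of the total. Of library measures, total counts had 0.38 and -0.43 and the number of genes detected 0.43 and 0.48.

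Most measured genes of the processes that myoglobin serves were, like Mb, higher in adult and transplanted than in cultured cells. Of all measured genes 28.6% and 26.7% were. The rise was not particular to those processes. Of glycolysis genes 11 of 14 were higher and 2 lower in adult cells, and 9 of 13 higher and 3 lower in transplanted cells. Of 24 sarcomere genes 15 were higher in each group, with 7 lower in adult and 9 in transplanted cells. Of calcium handling genes 5 of 9 were higher in adult and 6 of 8 in transplanted cells, with 2 lower in each. Of 41 measured genes on the oxidative phosphorylation list, 40 were more than 2-fold higher and 0 lower in adult than in cultured cells. The median log2 ratio was 3.93. In transplanted against cultured cells 39 were higher and 1, Sdha of complex II, lower (4.09). Fatty acid uptake and oxidation had 20 of 20 higher in adult (4.24) and 18 of 20 higher in transplanted cells (4.50), where Slc25a20, the mitochondrial carnitine carrier, was lower on 1 count against 9. Without cultured E those fatty acid medians were 5.63 and 6.53. Fabp3, the fatty acid carrier of heart, had 6273 CPM in adult, 7183 CPM in transplanted and 4.85 CPM in cultured cells. Of 5 energy transfer genes, 5 were higher in adult and 4 in transplanted than in cultured cells. Ckm, the muscle creatine kinase, had 5222 CPM in adult, 5192 CPM in transplanted and 0 in cultured cells, and Ckmt2, its mitochondrial partner, 2283, 3554 and 0 CPM. Between adult and transplanted cells the medians were near 0, at 0.02 for oxidative phosphorylation and -0.04 for fatty acid genes, and 1 of 41 and 1 of 21 were higher and 2 of 41 and 4 of 21 lower, where 44% and 34.6% of all measured genes were. Those small counts changed when 1 of the 16 cells was left out, to 1 to 3 higher and 1 to 5 lower among oxidative phosphorylation genes and to 1 to 5 higher and 2 to 6 lower among fatty acid genes.

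Heme, which myoglobin needs, is made by a short chain of enzymes whose transcripts were scarce. Alas1, the rate-limiting first enzyme outside red cells, had 60 counts in 2 adult cells and 0 in transplanted and cultured cells. Uros had 91 counts in 2 adult cells and Ppox 62 in 1, and both had 0 in the other groups. Alad, the second enzyme, was the reverse, with 0 counts in adult cells, 355 in 2 transplanted cells and 2 in cultured cells. Fech, which inserts the iron, had 5 counts in adult, 0 in transplanted and 3 in cultured cells, and Urod had 46, 0 and 16. Tmem14c, a mitochondrial porphyrin transporter, had 123 CPM in 3 adult cells, 411 CPM in 4 transplanted cells and 0 in cultured cells.

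Of 7 measured heme synthesis genes, 5 were more than 2-fold higher in adult than in transplanted cells and 2 lower, but without adult C 3 were higher; over all measured genes 44% were higher and 34.6% lower. Against cultured cells 5 of 6 were higher in adult cells, 4 of them also against the floor, and 2 of 3 in transplanted cells, where 28.6% and 26.7% of all genes were. Most of these genes were seen in 1 to 4 cells of a group, while Mb was in all 16 adult and transplanted cells.

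Of 5 measured genes of iron storage and heme breakdown, 1 was higher and 1 lower in adult than in transplanted cells. Over all measured genes 44% were higher and 34.6% lower. Against cultured cells 2 of 5 were higher and 2 lower in both groups. Of all measured genes, 28.6% were higher and 62% lower in adult cells there, and 26.7% and 63.9% in transplanted cells. Between adult and transplanted cells 0 were higher without adult B and 3 without transplanted G, and 2 were lower without adult C. Against cultured cells 1 was higher in adult cells without adult B. Fth1, the ferritin heavy chain, had 9787 CPM in adult, 9400.0 CPM in transplanted and 1935 CPM in cultured cells. Ftl1, the light chain, was the other way, at 164 CPM in adult, 91.3 CPM in transplanted and 2444 CPM in cultured cells. Tfrc, the transferrin receptor that brings iron in, had 0 counts in adult and transplanted cells and 228 counts in 5 cultured cells. Of other globins only Adgb is listed, with 1 count in cultured cells.

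Regulators linked to Mb transcription were detected in few cells. Of 11 measured, 2 were more than 2-fold higher and 8 lower in adult than in cultured cells, with a median log2 ratio of -4.46 (-5.22 without adult H, -2.80 without cultured B), where 28.6% and 62% of all genes were. Of 10, 1 was higher and 9 lower in transplanted than in cultured cells, with a median of -6.40 (-5.17 with genes at 0 set to the floor), where 26.7% and 63.9% of all genes were. The 1 called higher, Nkx2-5, is past 2-fold only with the pseudocount: against the floor it was at least 1.69-fold higher. Without adult B or adult H, 1 was higher in adult than in cultured cells. Mef2a had 187 counts in 2 adult cells, 1 in transplanted and 93 in 3 cultured cells, or 147, 0.768 and 451 CPM. Mef2c had 103 counts in 2 adult cells, 0 in transplanted and 103 in 3 cultured cells. Ppargc1a, which encodes PGC-1 alpha, had 3, 25 and 15 counts in adult, transplanted and cultured cells, in 2 cells of each. Nfatc3, a target of calcineurin, and Ppp3ca, its catalytic subunit, had 0 counts in adult and transplanted cells and 42 and 21 in cultured cells.

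Esrra, a receptor of oxidative metabolism, had 34 counts in 1 adult cell, 5 in transplanted and 1 in cultured cells. Nkx2-5, a cardiac homeobox factor, had 5, 32 and 0 counts, and Gata4, a cardiac zinc finger factor, 0, 5 and 8. Between adult and transplanted cells, 5 of 7 were higher and 2 lower, where 44% and 34.6% of all measured genes were. Without transplanted B 1 was lower. Sp1, Nfatc1 and Ppargc1b had no count in any group.

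Of the hypoxia list, 3 of 10 measured genes were higher and 6 lower in adult than in cultured cells, near the 28.6% and 62% of all genes. In transplanted against cultured cells 1 of 9 was higher and 5 lower, where 26.7% and 63.9% of all genes were. Between adult and transplanted cells 2 of 7 were higher and 2 lower, where 44% and 34.6% of all measured genes were. These counts turned on single cells, as 1 gene was higher in adult than in cultured cells without cultured B or H, and 3 were higher in transplanted than in cultured cells without cultured A and 0 without cultured B. Hif1a, the oxygen-sensing factor, had 6, 0 and 206 counts in adult, transplanted and cultured cells, and Vegfa, one of its targets, 103, 72.1 and 48.5 CPM. Of genes that handle nitric oxide and reactive oxygen, 6 of 12 were higher and 3 lower than in cultured cells, both in adult and in transplanted cells. Over all measured genes 28.6% were higher and 62% lower in adult cells, and 26.7% and 63.9% in transplanted cells. Prdx2, a peroxidase, had 1420.3 CPM in adult, 1243 CPM in transplanted and 301 CPM in cultured cells, and Sod2, the mitochondrial superoxide dismutase, 859, 1020.05 and 34.0 CPM.

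The genes around Mb on the chromosome did not share its pattern. Of 18 annotated within 200 kb, 5 are listed. Arhgap39, Zfp251, Commd5 and Rbfox2 had 0 counts in adult and transplanted cells and 2, 2, 116 and 7 in cultured cells, with all 116 of Commd5 in 1 cell. Rpl8, a ribosomal protein gene, had 213.9 CPM in adult, 187 CPM in transplanted and 223 CPM in cultured cells.

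Skeletal muscle also makes myoglobin, and its markers were low in all groups. Of 13 such markers 4 are listed, and they took at most 0.156% of counts in an adult cell, 0.0676% in a transplanted cell and 0.0541% in a cultured cell. Endothelial markers, 5 of 10 listed, were at 0 in adult and cultured cells and reached 0.110% in a transplanted cell. Leukocyte markers, 3 of 10 listed, were at 0 in adult and transplanted cells and reached 0.0362% in a cultured cell. Smooth muscle and pericyte markers, 7 of 8 listed, reached 0.235%, 0.0721% and 0.177%. Red blood cell markers were not analysed here.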

How the data were processed

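Cells were taken by flow cytometry or by hand, and their RNA was copied with a template-switching enzyme, amplified and cut with Tn5, per the labels' protocols. The authors deposited raw counts of reads for each gene in each cell, and no molecular identifiers are stated. Per the submitters' processing notes, TopHat2 2.1.0, HTSeq, DESeq2 and the mouse build mm10 were used, also for rat cells. The role of each tool, the annotation and strandedness: not given in the sources used here. No count was recorded for 692 of 9595 listed genes.

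The genes, lists and settings were chosen with earlier results of these data known. Totals per cell are given above. Cells of 1 group differed beyond sampling noise in every pair (chi-square per degree of freedom at least 13.6). Counts were summed per group and scaled to CPM, with exact Poisson intervals for levels and conditional binomial intervals for ratios; single shares have exact Clopper-Pearson intervals. Genes are called past 2-fold on CPM with a pseudocount of 1 CPM, if they have at least 10 counts over both groups. Genes at 0 in a group were set against a floor of 3 counts over the group. Named genes are Mb, the 10 most and 5 least like it, up to 4 members of each list by level, every listed heme synthesis, globin and regulator gene, 5 genes above and below Mb in rank, and those within 200 kb; a part of them is printed, some are not reported here, and some others were chosen after their values were seen. Exon lengths (GENCODE M21) matched 99.2% of genes. Alternatives were TMM (edgeR 4.0.16) and median-of-ratios factors (DESeq2 1.42.0) with no model, other totals and weights, thinning to 80000 counts, other minimums, Pearson's r, and leaving out each cell. Python 3.11.15 and scipy 1.17.1 were used, and the steps were tested on simulated data.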

Additional observations from a re-analysis of the deposited data

Results flagged for a closer look

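In groups of 8 cells, 33 sets of single-cell levels were checked for a cell far from the other 7. Chance would flag about 1 set in 20 if levels were normally distributed. Mb itself was flagged in cultured cell A, at 101 CPM or 2 counts against 0 in the 7 others, where any count would be flagged. Ankrd23 stood out in transplanted G at 1398 CPM, with the next cell at 211 CPM. Transplanted C was far above the next cell in 3 genes: Dsp at 1903 CPM (next 699), Rplp2 at 788 CPM (next 242) and Timm8b at 4313 CPM (next 2005). Adult A was far above in Cox7b at 13042 CPM (next 7399) and in Rplp2 at 791 CPM (next 413), and far below in Ndufv3 at 2320 CPM (next 4788). These cells enter the likeness of those genes to Mb.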

How the results depend on the processing

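The Mb level was 29565, 29107 and 28043 CPM in adult cells and 24880.4, 24606.5 and 25381 CPM in transplanted cells with Mb left out of the total, with library quality RNAs left out, and with equal weight to each cell. The adult to transplanted ratio was 1.11 with median-of-ratios factors and 1.10 with equal weights. The CV of Mb was 36.9% and 36.3% in adult cells and 33.1% and 32.4% in transplanted cells with Mb left out of the total and with cells thinned to 80000 counts. With no minimum count, 6055 genes were past 2-fold lower in adult and 6149 in transplanted than in cultured cells, against 3180 and 3167. TMM factors shifted log2 ratios by 0.00 between adult and transplanted cells and by 0.92 for each of these groups against cultured cells. No Mb ratio turned its direction under these settings, but the likeness of Cox7b to Mb did with Pearson's r, at -0.06.

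Leaving out 1 cell gave Mb levels of 26917 to 30153.5 CPM in adult, 22510.1 to 26072 CPM in transplanted and 0 to 13.8 CPM in cultured cells. The adult to transplanted ratio lay between 1.10 and 1.28 (without transplanted B). The adult to cultured ratio lay between 1784, a bound without cultured A, and 3108.5, and the transplanted to cultured ratio between 1508, likewise a bound, and 2688. Against cultured A alone, added after seeing the data, they were 284 and 240.5. The CV lay between 29.3% and 39.0% in adult and between 23.9% and 34.4% in transplanted cells. Between 0 and 2 genes had both rho at least 0.7, and between 0 and 2 had both at most -0.7 (Myl2 and Tnnc1 without adult F).

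The order of likeness was less stable: Cox8b came first in 5 of 6 other settings but not with Pearson's r (Atp5k), and another gene came first without adult F (Myh6) or transplanted B (Ankrd23), G (Atp5k) or H (Uqcr11). With 8 cells, a coefficient rests on few points. No paired analysis was possible because the letters only name cells and no test was run. Which part of each difference comes from species, depth or library quality was not tested.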

Other observations

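A gap in the single-cell Mb levels was noticed after seeing the data. None of the 16 adult and transplanted cells lay between 24303 and 33907 CPM, a step of 1.40 times where the next largest step was 1.30 times. The 6 cells above it were adult A, B, C and G and transplanted B and D, and the 10 below it were 4 adult and 6 transplanted cells. The same cells lay on each side in all 5 scalings tried, including Mb per exon length and thinned counts, although with median-of-ratios factors per cell the step was 1.17 times, close to the next largest at 1.15 times. With so few cells the gap is a description of these libraries only.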
